A study of Homo sapiens with 16 samples.

Results

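The genes described here are 49 genes of mitosis, taken by name from a list of mitotic kinesins, centromere and kinetochore proteins, spindle checkpoint proteins, mitotic kinases, spindle assembly and cytokinesis factors, the anaphase-promoting complex axis, and the transcription factors FOXM1 and MYBL2. No expression value entered the rule, but the list was drawn up with earlier results of these data known. Each of the 49 symbols matched 1 of the 58676 Ensembl identifiers in the gene count files, and all 49 passed the filter on low counts in both cell lines. Poly(A) RNA was sequenced from the human lung cancer line A549, grown in RPMI, and from SUM159 cells, a line of triple-negative breast cancer grown in DMEM/F12 with insulin and hydrocortisone. Each line was left untreated or was exposed for 16 h to 2 µM palbociclib, to 3 µM indisulam, or to 2 µM palbociclib with 3 µM indisulam, called the combination. Palbociclib inhibits CDK4 and CDK6, the kinases that phosphorylate the retinoblastoma protein, and indisulam makes the splicing factor RBM39 a substrate for degradation. No added gene, deletion or other agent is given in the labels for any group. There were 2 libraries in each of the 8 groups, 16 in all, and the study calls the duplicates technical. The p-values therefore measure only the spread between these libraries and do not reach to independent cultures. The medium differs with the cell line, so a difference between lines cannot be told apart from one between media.

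Chromosomes are moved by the spindle, an array of microtubules that attaches to each centromere through the kinetochore. Kinesins move along or dismantle those microtubules, the spindle checkpoint delays anaphase until every kinetochore is attached, and the anaphase-promoting complex then marks securin and the mitotic cyclins for destruction. Genes of this machinery are transcribed late in the cell cycle. Their promoters often hold a cell cycle genes homology region (CHR), the short element TTTGAA bound by the MuvB core, which represses together with the RB relatives p107 and p130 in quiescent cells and activates together with MYBL2 and then FOXM1 in cycling cells. CDK4 and CDK6, the kinases that palbociclib inhibits, lead cells out of the repressed state. A route from indisulam to these genes was not tested. In bulk RNA, fewer cells in mitosis and less RNA of these genes per cell cannot be told apart.

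The CHR letters are shown first because most of the promoters hold them. Promoters of 42 of the 49 genes were in the RefSeq table of GRCh38.p14, each running from 250 bases before the transcription start to 50 bases after it. The windows that follow are 30 bases each, read 5′ to 3′ on the strand of the gene, with the CHR in capitals.
PLK1, chr16:23678848-23678877, plus strand: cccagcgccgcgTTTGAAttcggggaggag
BUB1B, chr15:40161034-40161063, plus strand: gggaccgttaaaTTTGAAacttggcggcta
CDC20, chr1:43358904-43358933, plus strand: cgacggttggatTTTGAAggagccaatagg
KIF23, chr15:69414282-69414311, plus strand: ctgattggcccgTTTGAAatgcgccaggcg
CDCA8, chr1:37692481-37692510, plus strand: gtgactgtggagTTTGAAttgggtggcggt
MKI67, chr10:128126435-128126464, minus strand: tcttcgttttcgTTTGAAttgggcgggcgc
BUB1, chr2:110678045-110678074, minus strand: ctgcgcggggtaTTCGAAtcggcggcggct
The first 6 carry TTTGAA and come from a kinase, a checkpoint kinase, an activator of the anaphase-promoting complex, a kinesin, a subunit of the passenger complex and the proliferation marker Ki-67. BUB1 is shown because its window carries the variant TTCGAA instead.

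Searched on both strands, TTTGAA or TTCGAA was present in 33 of the 42 promoters (78.6%), against 16.6% of all 27305 promoters in the table. TTTGAA alone was in 31 of them (73.8%, against 15.4% of all) and TTCGAA in 3 (7.14%, against 1.45%), so that 1 promoter held both. The CCAAT box, the letters CCAAT on either strand and the usual companion of the CHR, was in 32 (76.2%, against 35.7%), and 27 promoters held both a CHR and a CCAAT box (64.3%, against 6.58%). In a shorter window, from 100 bases before the start to 50 after it, 31 of the 42 promoters kept a CHR (73.8%, against 7.43%). For E2F only the exact letters TTTCGCGC and TTTGGCGC were searched, and a match was found only in the promoter of KIF15 (2.38%, against 1.18%). Other forms of an E2F site were not searched, so a promoter without these letters can still hold one. TAAACA, the core letters of a forkhead site, was in the promoters of CENPE, BUB1B and ASPM (7.14%, against 12.4%). Promoters without a CHR in this window were those of KIF20A, KIF2C, CENPE, CENPI, SPC24, AURKB, NEK2, PTTG1 and MYBL2, and those of KIF2C, CENPE, CENPI and MYBL2 also lacked CCAAT. A match is a description of letters and not a measured binding site. Median log2 changes against untreated are given for the 33 genes with a CHR and then the 9 without. Upon palbociclib they were -2.20 and -2.25 in A549, and -1.45 and -1.77 in SUM159. Upon indisulam they were -0.23 and -0.28 in A549, and -0.19 and -0.37 in SUM159. Upon the combination they were -2.55 and -3.13 in A549, and -2.04 and -2.50 in SUM159. A link between the letters and the changes was not tested. Promoters of CENPM, TTK, BIRC5, AURKA, TPX2, UBE2C and FOXM1 were not analysed here.

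**Figure D1:**
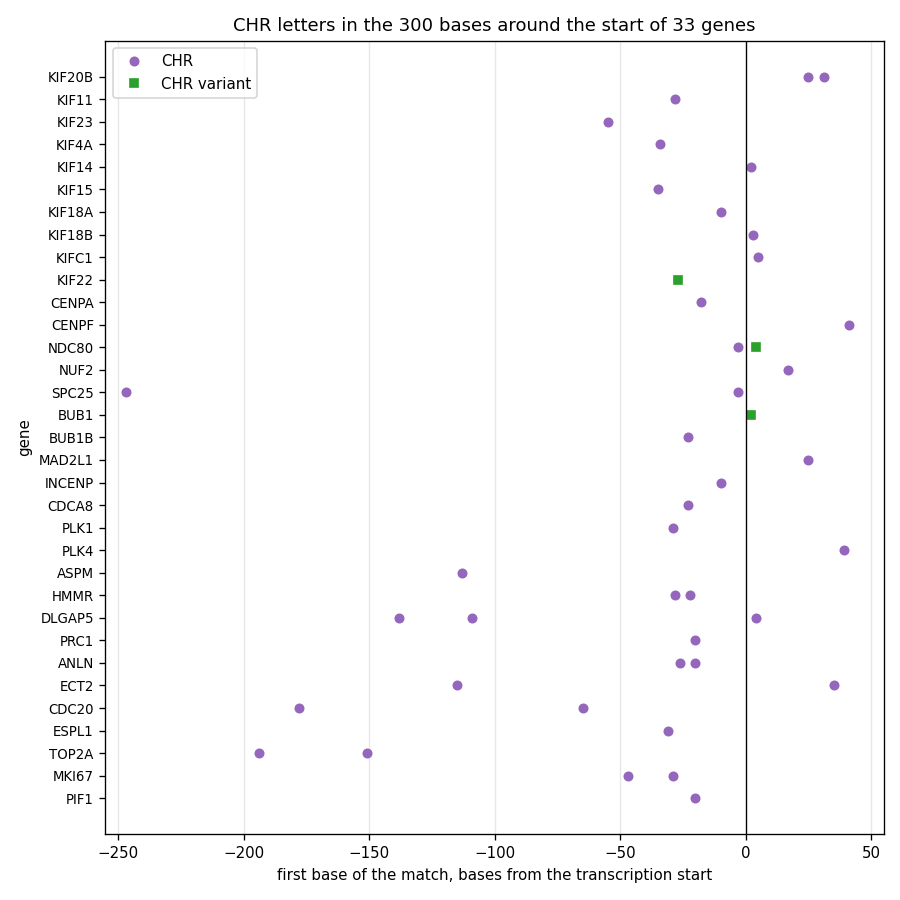
Position of every CHR match in the promoters of the 33 genes that hold one, as the distance in bases from the annotated transcription start (x axis), 1 row per gene. The 44 matches include 10 genes with more than 1.

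Between 18306636 and 34075588 reads per library were counted in genes. The smallest level taken as visible, 3 counts, equals 0.0880 to 0.164 CPM (gene counts scaled to a common library size, with TMM scaling factors). Epithelial KRT8, KRT18 and EPCAM and the lung cancer markers AKR1B10 and AKR1C1 were higher in all A549 libraries than in any SUM159 library, and mesenchymal VIM, AXL and CAV1 were higher in all SUM159 libraries. CDKN2A, which A549 is described as lacking, had 24 to 56 counts per A549 library and 0 to 1 counts per SUM159 library. The paper reports a rise of its protein p16 in SUM159 on a blot, at other doses and after a longer time. Why the counts differ from these statements was not tested. ESR1 had 7 to 27 counts per SUM159 library and 0 to 1 per A549 library. No library stood apart from its duplicate in the summed level of the 49 genes. Exons of CENPA, BUB1B and PRC1 overlap another gene on the same strand, so their counts are uncertain. Those of KIF20A, KIF23, KIF2C, KIF4A, KIFC1, KIF22, NUF2, SPC24, PLK1, HMMR, PRC1, ANLN and FOXM1 overlap one on the other strand, and the strand setting of the counting is not given in the sources used here.

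To see how much of the mitotic transcript pool was left after each drug, the CPM of the 49 genes was summed in each library. In A549 the sum was 7590 and 7903 CPM untreated, 1930 and 1894 CPM upon palbociclib, 6088 and 6075 CPM upon indisulam and 1325 and 1378 CPM upon both. In SUM159 it was 7390 and 7507 CPM untreated, 2668 and 2651 CPM upon palbociclib, 6190 and 6193 CPM upon indisulam and 1809 and 1816 CPM upon both. The groups did not overlap in either line, and the order untreated, indisulam, palbociclib, combination was the same. Mean sums after palbociclib were 24.7% of untreated in A549 and 35.7% in SUM159, after indisulam 78.5% and 83.1%, and after the combination 17.4% and 24.3%.

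Palbociclib lowered every one of the 49 genes in both lines (edgeR quasi-likelihood test, Benjamini-Hochberg adjusted p below 0.05 over all genes tested). Of all genes tested, 21.1% were lower and 22.0% higher in A549, and 29.0% and 25.5% in SUM159. The median log2 change of the 49 genes was -2.18 in A549, from -3.30 for KIF20A to -0.99 for ECT2, and -1.44 in SUM159, from -2.46 for KIF20A to -0.64 for PIF1. The medians of all genes tested were 0.03 and 0.02. A fall of at least 2-fold was seen for 48 of the genes in A549, where 2.78% of all genes tested fell as far, and for 42 in SUM159, against 2.10% of all. The level left after palbociclib, as a percent of the untreated level, had a median of 22.1% over the 49 genes in A549 and 37.0% in SUM159.

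Indisulam moved them in both directions and less far. In A549, 28 fell, 8 rose and 13 did not pass the test, beside 25.9% of all genes lower and 23.3% higher. In SUM159, 29 fell, 4 rose (10 with total-count scaling) and 16 did not pass, beside 24.9% and 21.9% of all genes. The median log2 change was -0.22 in each line, with a range from -2.35 for CENPI to 0.52 for SPC24 in A549 and from -1.16 for CENPM to 0.65 for PIF1 in SUM159. Falls of at least 2-fold were seen for 6 genes in A549 and 2 in SUM159, beside 5.02% and 1.87% of all genes tested.

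Upon the combination all 49 genes were lower than untreated in both lines, while 30.4% of all genes were lower and 27.4% higher in A549, and 33.1% and 32.2% in SUM159. The median log2 change was -2.51 in A549, from -3.999 for TOP2A to -0.97 for KIF18A, and -1.98 in SUM159, from -2.87 for TOP2A to -0.68 for SPC24. At least 2-fold falls took in 48 genes in A549 and 47 in SUM159, against 7.63% and 4.27% of all genes tested. Fewer than 25% of the untreated level remained for 41 of the 49 genes in A549 and for 24 in SUM159. After palbociclib alone those numbers were 31 and 3.

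**Figure D2:**
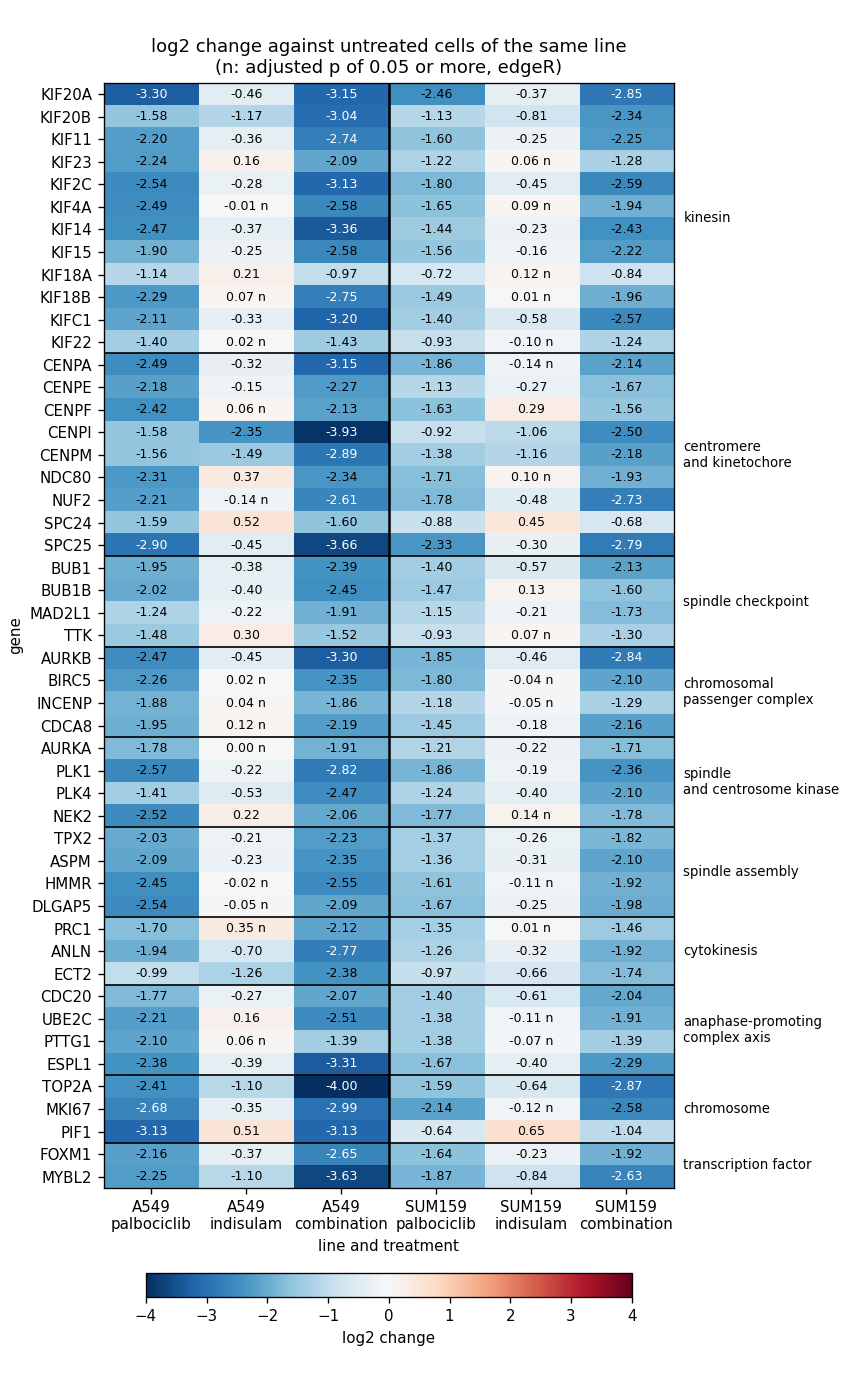
Heat map of the log2 change of each of the 49 genes (rows, grouped by role) against untreated cells of the same line upon palbociclib, indisulam and the combination (columns, A549 and then SUM159), with blue for lower, red for higher and n beside a value that did not pass the test. The palbociclib and combination columns are blue throughout, and the indisulam columns hold both colours, from -2.35 for CENPI in A549 to 0.65 for PIF1 in SUM159.

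FOXM1 (chr12:2857680-2877174, minus strand) encodes the forkhead factor that drives transcription in late G2 and mitosis. In A549 it had 314 and 305 CPM in the untreated libraries, 68.7 and 69.9 CPM with palbociclib, 243 and 237 CPM with indisulam and 48.4 and 50.5 CPM with the combination. SUM159 libraries had 272 and 268 CPM untreated, 84.9 and 88.1 CPM upon palbociclib, 232 and 229 CPM upon indisulam and 72.4 and 70.1 CPM upon both. No group overlapped another in either line, and the values fell in the same order as the sum over the 49 genes. The log2 changes against untreated were -2.16 ± 0.043 (SE), -0.37 ± 0.040 and -2.65 ± 0.045 for palbociclib, indisulam and the combination in A549, and -1.64 ± 0.038, -0.23 ± 0.036 and -1.92 ± 0.039 in SUM159. MYBL2 (chr20:43667019-43716495, plus strand), which encodes the MYB factor that joins MuvB before FOXM1 does, fell upon each drug. Its levels in A549 were 173 and 167 CPM in the untreated libraries, 34.4 and 36.7 CPM with palbociclib, 77.5 and 81.2 CPM with indisulam and 14.4 and 13.1 CPM with the combination, and those in SUM159 were 131 and 124 CPM untreated, 34.2 and 35.2 CPM upon palbociclib, 72.3 and 69.9 CPM upon indisulam and 20.2 and 20.8 CPM upon both. Upon indisulam alone the changes of MYBL2 were -1.10 ± 0.051 in A549 and -0.84 ± 0.045 in SUM159. Upon both drugs the changes reached -3.63 ± 0.064 and -2.63 ± 0.052, with adjusted p = 7.09e-15 and 1.50e-16.

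The mitotic kinesins are motor proteins that build the spindle, position chromosomes or act at the cell midzone, and 12 of the genes were grouped as such. CENPE, also a kinesin, was counted with the centromere and kinetochore genes. All 12 fell upon palbociclib and upon the combination in both lines, with median log2 changes of -2.22 and -2.74 in A549 and -1.46 and -2.24 in SUM159. KIF20A (chr5:138178719-138187723, plus strand), a motor of the central spindle needed for cytokinesis, fell furthest upon palbociclib in both lines. It had 169 and 174 CPM in the untreated libraries, 17.8 and 17.1 CPM with palbociclib, 126 and 124 CPM with indisulam and 18.9 and 19.9 CPM with the combination in A549. Its SUM159 values were 168 and 169 CPM untreated, 30.5 and 30.6 CPM upon palbociclib, 130.0 and 131 CPM upon indisulam and 23.3 and 23.4 CPM upon both. In A549 the palbociclib and combination libraries lay close together, with changes of -3.30 ± 0.053 and -3.15 ± 0.054, whereas in SUM159 the combination libraries were the lower ones, at -2.85 ± 0.045 against -2.46 ± 0.043. KIF18A (chr11:28020619-28108156, minus strand), which dampens chromosome movement at the metaphase plate, had the smallest fall of the kinesin genes upon palbociclib and upon the combination in both lines. A549 cells had 54.6 and 53.0 CPM untreated, 23.9 and 24.97 CPM upon palbociclib, 62.6 and 61.7 CPM upon indisulam and 26.2 and 28.6 CPM upon both, and SUM159 cells 43.4 and 44.2 CPM untreated, 28.2 and 25.3 CPM upon palbociclib, 49.6 and 45.8 CPM upon indisulam and 23.4 and 25.7 CPM upon both. Indisulam-treated A549 libraries were the highest for KIF18A (0.21 ± 0.056, adjusted p = 0.00686), a call that was lost without the second untreated A549 library (adjusted p = 0.0522). KIF23, the motor of the centralspindlin complex, rose upon indisulam in A549 (294 and 291 CPM against 256 and 267 CPM untreated, log2 change 0.16 ± 0.039, adjusted p = 0.00331). Palbociclib and the combination brought KIF23 to 55.1 and 55.9 and to 61.4 and 61.5 CPM. Its SUM159 values were 157 and 155 CPM untreated, 68.6 and 65.4 CPM upon palbociclib, 163 and 162 CPM upon indisulam and 63.7 and 64.4 CPM upon both. KIF20B, a motor that works with cytokinesis factors at the midzone, had the largest fall of the kinesin genes upon indisulam. It had 124 and 131 CPM in the untreated libraries, 44.6 and 41.4 CPM with palbociclib, 57.9 and 55.1 CPM with indisulam and 14.5 and 16.5 CPM with the combination in A549. SUM159 libraries of KIF20B had 131 and 131 CPM untreated, 60.0 and 59.7 CPM upon palbociclib, 76.7 and 72.7 CPM upon indisulam and 25.9 and 25.7 CPM upon both. Each single drug took it below every untreated library, and the combination took it lowest. Its indisulam changes were -1.17 ± 0.059 in A549 and -0.81 ± 0.042 in SUM159. KIF11, the motor that pushes the spindle poles apart, stood at 227 and 230.5 CPM in the untreated libraries, 50.4 and 49.6 CPM with palbociclib, 179 and 178 CPM with indisulam and 33.6 and 34.9 CPM with the combination in A549. The SUM159 values of KIF11 were 187 and 189 CPM untreated, 63.2 and 61.4 CPM upon palbociclib, 161 and 156 CPM upon indisulam and 39.4 and 39.6 CPM upon both, with combination changes of -2.74 ± 0.046 in A549 and -2.25 ± 0.042 in SUM159. The depolymerase KIF2C, the chromokinesins KIF4A and KIF22, and KIF15 and KIF18B had combination changes from -3.13 for KIF2C to -1.43 for KIF22 in A549, and the same 2 genes bounded the range of -2.59 to -1.24 in SUM159.

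Centromere and kinetochore genes numbered 9, and all fell upon palbociclib (median -2.21 in A549 and -1.63 in SUM159) and upon the combination (-2.61 and -2.14). The NDC80 complex, which grips the microtubule, is made of NDC80, NUF2, SPC24 and SPC25, and its members went apart upon indisulam. SPC25 fell most in this role upon the combination, averaged over the lines. In A549 it stood at 19.7 and 19.0 CPM in the untreated libraries, 2.68 and 2.52 CPM with palbociclib, 13.9 and 14.6 CPM with indisulam and 1.20 and 1.87 CPM with the combination, and in SUM159 at 23.2 and 25.05 CPM untreated, 4.99 and 4.66 CPM upon palbociclib, 20.3 and 18.9 CPM upon indisulam and 3.46 and 3.50 CPM upon both. The change of SPC25 upon the combination was -3.66 ± 0.15 in A549 and -2.79 ± 0.098 in SUM159. SPC24 (chr19:11131520-11155807, minus strand), the subunit that pairs with SPC25, fell least upon the combination in both lines. It had 48.6 and 47.4 CPM in the untreated libraries, 15.7 and 16.2 CPM with palbociclib, 67.9 and 69.6 CPM with indisulam and 15.2 and 16.4 CPM with the combination in A549. The SPC24 levels in SUM159 were 40.3 and 42.4 CPM untreated, 23.1 and 21.9 CPM upon palbociclib, 57.1 and 56.4 CPM upon indisulam and 24.7 and 27.2 CPM upon both. Both indisulam libraries were above both untreated libraries in each line, and the rises of 0.52 ± 0.055 and 0.45 ± 0.057 passed the test with adjusted p = 2.94e-06 and 5.91e-06. NDC80 itself rose upon indisulam in A549, from 41.2 and 42.3 to 54.3 and 53.7 CPM (0.37 ± 0.061, adjusted p = 1.75e-04), and had 7.94 and 8.79 CPM upon palbociclib and 8.60 and 7.87 CPM upon both. In SUM159 the NDC80 values were 54.8 and 53.8 CPM untreated, 17.4 and 15.9 CPM upon palbociclib, 58.7 and 58.1 CPM upon indisulam and 14.3 and 14.2 CPM upon both. NUF2 had 52.7 and 47.9 CPM in the untreated libraries, 11.1 and 10.7 CPM with palbociclib, 47.4 and 44.2 CPM with indisulam and 8.10 and 8.39 CPM with the combination in A549. SUM159 cells had NUF2 at 54.3 and 50.3 CPM untreated, 15.2 and 15.2 CPM upon palbociclib, 38.4 and 36.5 CPM upon indisulam and 7.67 and 8.10 CPM upon both. It fell upon indisulam in SUM159 (-0.48 ± 0.057) and did not pass the test in A549. Thus, of the 4 subunits, SPC25 fell and SPC24 rose upon indisulam in both lines, although the SPC25 call in SUM159 (-0.30 ± 0.074) was lost without the second indisulam library (adjusted p = 0.0521). CENPF, a large kinetochore protein of late G2, was higher upon indisulam in SUM159 (237 and 243 against 191 and 202 CPM, 0.29 ± 0.042, adjusted p = 3.02e-05). It stood at 61.4 and 65.6 CPM upon palbociclib and 68.1 and 65.0 CPM upon both in that line, and in A549 at 294 and 347 CPM untreated, 63.2 and 57.1 CPM upon palbociclib, 329 and 341 CPM upon indisulam and 70.9 and 76.0 CPM upon both.

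The deepest fall upon indisulam alone in A549 was that of CENPI (chrX:101098188-101166126, plus strand), a subunit of the inner centromere network that helps load CENP-A, the centromeric histone. CENPI had 37.7 and 37.4 CPM in the untreated libraries, 13.01 and 12.2 CPM with palbociclib, 7.96 and 6.77 CPM with indisulam and 2.39 and 2.53 CPM with the combination in A549. For CENPI, SUM159 gave 62.5 and 65.8 CPM untreated, 34.4 and 33.5 CPM upon palbociclib, 30.3 and 31.4 CPM upon indisulam and 11.04 and 11.7 CPM upon both. In both lines its indisulam libraries were below its palbociclib libraries, the reverse of the order seen for the sum over the 49 genes. CENPI changed by -2.35 ± 0.090 and -1.06 ± 0.055 upon indisulam in A549 and SUM159, with adjusted p = 1.49e-10 and 2.38e-10. CENPM, of the same network, was the other gene with a 2-fold fall upon indisulam in both lines. It had 18.1 and 19.6 CPM in the untreated libraries, 5.69 and 6.84 CPM with palbociclib, 6.80 and 6.60 CPM with indisulam and 2.81 and 2.25 CPM with the combination in A549. In SUM159 CENPM stood at 20.8 and 25.6 CPM untreated, 8.40 and 9.28 CPM upon palbociclib, 10.6 and 10.1 CPM upon indisulam and 5.15 and 5.06 CPM upon both. Its indisulam libraries lay within the range of its palbociclib libraries in A549 and above them in SUM159, with indisulam changes of -1.49 ± 0.11 and -1.16 ± 0.098 and palbociclib changes of -1.56 ± 0.11 and -1.38 ± 0.098. CENPA, the centromeric histone itself, had palbociclib changes of -2.49 ± 0.079 and -1.86 ± 0.076 and combination changes of -3.15 ± 0.090 and -2.14 ± 0.079. These values count reads per gene and do not resolve how the transcripts were spliced.

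The spindle checkpoint genes BUB1, BUB1B, MAD2L1 and TTK fell upon palbociclib and the combination in both lines. BUB1, a kinase at unattached kinetochores whose promoter holds the CHR variant, had the largest fall in this role upon the combination averaged over the lines, while BUB1B fell further in A549. It had 121 and 125 CPM in the untreated libraries, 31.7 and 31.8 CPM with palbociclib, 96.5 and 93.2 CPM with indisulam and 24.5 and 22.5 CPM with the combination in A549. BUB1 in SUM159 had 169.9 and 172 CPM untreated, 66.9 and 62.7 CPM upon palbociclib, 117 and 113 CPM upon indisulam and 38.6 and 39.4 CPM upon both. The groups did not overlap in either line. The kinase TTK, also called MPS1, fell least upon the combination in both lines, with 70.9 and 68.5 CPM in the untreated libraries, 25.01 and 24.9 CPM with palbociclib, 87.4 and 84.5 CPM with indisulam and 23.9 and 24.9 CPM with the combination in A549. SUM159 values of TTK were 89.8 and 89.7 CPM untreated, 49.6 and 44.9 CPM upon palbociclib, 93.0 and 95.4 CPM upon indisulam and 37.0 and 35.8 CPM upon both. It rose upon indisulam in A549 (0.30 ± 0.050, adjusted p = 1.73e-04), while BUB1 (-0.38 ± 0.049) and MAD2L1 (-0.22 ± 0.053) fell. The call of MAD2L1 in A549 was lost without the second untreated library (adjusted p = 0.0508) or the first indisulam library (adjusted p = 0.0709). BUB1B, the kinase-like checkpoint protein BubR1, was the only one of the 49 genes called in opposite directions by indisulam, at -0.40 ± 0.050 in A549 and 0.13 ± 0.042 in SUM159, beside 1.82% of the genes tested in both lines. Its levels were 107 and 108 CPM in the untreated libraries, 26.5 and 26.3 CPM with palbociclib, 84.3 and 78.5 CPM with indisulam and 20.1 and 19.1 CPM with the combination in A549. SUM159 libraries of BUB1B had 146 and 142 CPM untreated, 54.0 and 50.3 CPM upon palbociclib, 156 and 160.1 CPM upon indisulam and 48.0 and 46.6 CPM upon both. The rise in SUM159 was lost without the second untreated library (adjusted p = 0.127) or the second indisulam library (adjusted p = 0.0989), and the gene shares exons with the annotated readthrough BUB1B-PAK6.

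The chromosomal passenger complex corrects faulty attachments and directs cleavage, and is made of AURKB, BIRC5, INCENP and CDCA8. Its 4 genes fell upon palbociclib and upon the combination in both lines. The kinase gene AURKB had 65.9 and 69.4 CPM in the untreated libraries, 11.7 and 12.5 CPM with palbociclib, 49.8 and 49.3 CPM with indisulam and 6.49 and 7.22 CPM with the combination in A549. The AURKB levels in SUM159 were 66.1 and 60.7 CPM untreated, 16.4 and 18.5 CPM upon palbociclib, 45.7 and 46.2 CPM upon indisulam and 9.14 and 8.56 CPM upon both. AURKB was the only gene of the complex that passed the test upon indisulam in A549 (-0.45 ± 0.058, adjusted p = 1.90e-05), and it fell to a like degree in SUM159 (-0.46 ± 0.059). The scaffold gene INCENP, which fell least upon palbociclib and upon the combination in both lines, had 133 and 139 CPM in the untreated libraries, 36.9 and 37.0 CPM with palbociclib, 139 and 141 CPM with indisulam and 37.6 and 37.4 CPM with the combination in A549. SUM159 libraries had 101 and 96.3 CPM untreated, 41.9 and 45.1 CPM upon palbociclib, 93.9 and 97.0 CPM upon indisulam and 40.4 and 40.1 CPM upon both for INCENP. In both lines every library given palbociclib, alone or with indisulam, lay below every library without it. CDCA8, the subunit also called borealin, had 64.8 and 59.1 CPM in the untreated libraries, 14.9 and 16.8 CPM with palbociclib, 67.3 and 67.2 CPM with indisulam and 14.1 and 12.98 CPM with the combination in A549. SUM159 cells had CDCA8 at 105 and 108 CPM untreated, 37.8 and 40.2 CPM upon palbociclib, 93.0 and 95.5 CPM upon indisulam and 23.0 and 24.8 CPM upon both. BIRC5, which encodes survivin, had 169.9 and 169 CPM in the untreated libraries, 34.6 and 35.8 CPM with palbociclib, 172 and 171 CPM with indisulam and 33.5 and 32.7 CPM with the combination in A549. For BIRC5, SUM159 gave 242 and 244 CPM untreated, 69.3 and 70.0 CPM upon palbociclib, 238 and 234 CPM upon indisulam and 53.2 and 60.2 CPM upon both. In A549 neither CDCA8 nor BIRC5 passed the test upon indisulam, and in SUM159 CDCA8 did (-0.18 ± 0.046). The changes of INCENP upon palbociclib were -1.88 ± 0.048 and -1.18 ± 0.049.

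Among the kinases of the spindle and centrosome, PLK1 (chr16:23677656-23690367, plus strand), which governs entry into and exit from mitosis, fell furthest upon the combination. Its values were 257 and 244 CPM in the untreated libraries, 42.5 and 42.3 CPM with palbociclib, 220.0 and 212 CPM with indisulam and 35.4 and 35.4 CPM with the combination in A549. In SUM159 PLK1 stood at 257 and 258 CPM untreated, 71.2 and 71.3 CPM upon palbociclib, 226 and 227 CPM upon indisulam and 50.1 and 50.4 CPM upon both. The combination change was -2.82 ± 0.049 in A549 and -2.36 ± 0.039 in SUM159, with no overlap between groups in either line. AURKA, which matures centrosomes, had the smallest combination fall in this role in both lines. It had 170.4 and 173 CPM in the untreated libraries, 49.1 and 51.0 CPM with palbociclib, 172 and 172 CPM with indisulam and 45.3 and 46.4 CPM with the combination in A549. AURKA in SUM159 had 161 and 169 CPM untreated, 72.6 and 70.5 CPM upon palbociclib, 143 and 140.1 CPM upon indisulam and 49.8 and 51.3 CPM upon both. PLK4, the kinase that starts centriole duplication, and NEK2, which separates centrosomes, went opposite ways upon indisulam in A549, at -0.53 ± 0.062 and 0.22 ± 0.050. NEK2 had 95.3 and 91.1 CPM in the untreated libraries, 15.6 and 16.6 CPM with palbociclib, 109 and 109 CPM with indisulam and 23.1 and 21.6 CPM with the combination in A549. SUM159 values of NEK2 were 52.5 and 54.6 CPM untreated, 17.3 and 14.3 CPM upon palbociclib, 58.0 and 60.1 CPM upon indisulam and 15.3 and 16.0 CPM upon both. PLK4 had 46.2 and 45.6 CPM in the untreated libraries, 17.8 and 16.9 CPM with palbociclib, 32.5 and 31.2 CPM with indisulam and 8.10 and 8.48 CPM with the combination in A549. SUM159 libraries of PLK4 had 65.3 and 67.8 CPM untreated, 28.6 and 27.7 CPM upon palbociclib, 51.6 and 48.97 CPM upon indisulam and 15.7 and 15.1 CPM upon both. Upon the combination NEK2 thus lay above its palbociclib level in A549, and PLK4 lay below its palbociclib level in both lines. In SUM159 the fall of PLK4 (-0.40 ± 0.051) passed the test and NEK2 did not.

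Of the spindle assembly factors, HMMR, a microtubule-binding protein of the spindle poles, fell most upon the combination when averaged over the lines, as it did in A549, while ASPM fell most in SUM159. HMMR had 142 and 134 CPM in the untreated libraries, 25.7 and 25.03 CPM with palbociclib, 139 and 134 CPM with indisulam and 23.8 and 23.5 CPM with the combination in A549. The HMMR levels in SUM159 were 121 and 111 CPM untreated, 41.3 and 34.9 CPM upon palbociclib, 113 and 103 CPM upon indisulam and 29.0 and 32.6 CPM upon both. TPX2, the activator of Aurora A, fell least upon the combination averaged over the lines, as it did in SUM159, while DLGAP5 fell least in A549. TPX2 had 274 and 271 CPM in the untreated libraries, 70.0 and 63.8 CPM with palbociclib, 239 and 232 CPM with indisulam and 54.7 and 60.9 CPM with the combination in A549. SUM159 cells had TPX2 at 391 and 393 CPM untreated, 152 and 150.1 CPM upon palbociclib, 331 and 323 CPM upon indisulam and 109 and 114 CPM upon both. For both genes the libraries given palbociclib, alone or in the combination, lay below those without it. DLGAP5, which encodes the microtubule stabiliser HURP, had 135 and 131 CPM in the untreated libraries, 22.4 and 23.2 CPM with palbociclib, 131 and 126 CPM with indisulam and 31.8 and 30.5 CPM with the combination in A549. For DLGAP5, SUM159 gave 131 and 134 CPM untreated, 41.6 and 41.4 CPM upon palbociclib, 112 and 110.4 CPM upon indisulam and 32.9 and 34.3 CPM upon both. The combination libraries lay above the palbociclib ones in A549 and below them in SUM159. ASPM, a protein of the spindle poles, had combination changes of -2.35 ± 0.086 and -2.10 ± 0.050. Of the cytokinesis genes, ANLN, an actin-binding scaffold of the cleavage furrow, fell most upon the combination in both lines. ANLN had 393 and 407 CPM in the untreated libraries, 106 and 103 CPM with palbociclib, 247 and 244 CPM with indisulam and 57.2 and 59.7 CPM with the combination in A549. In SUM159 ANLN stood at 446 and 458 CPM untreated, 196 and 181 CPM upon palbociclib, 364 and 359.8 CPM upon indisulam and 119 and 120.3 CPM upon both. It fell upon indisulam in both lines, with changes of -0.70 ± 0.040 and -0.32 ± 0.039. ECT2, the exchange factor that activates RhoA at the furrow, had the smallest palbociclib fall of the 49 genes in A549 (-0.99 ± 0.043) and fell upon indisulam as well (-1.26 ± 0.043 in A549 and -0.66 ± 0.043 in SUM159). Its levels were 679 and 708 CPM in the untreated libraries, 355 and 345 CPM with palbociclib, 288 and 290.2 CPM with indisulam and 129 and 139 CPM with the combination in A549. ECT2 in SUM159 had 214 and 211 CPM untreated, 112 and 105 CPM upon palbociclib, 137 and 132 CPM upon indisulam and 61.9 and 65.8 CPM upon both. As for CENPI, the A549 indisulam libraries of ECT2 were lower than the palbociclib libraries, while in SUM159 they were higher. PRC1, which bundles the midzone microtubules, was counted at only 2.43 and 2.65 CPM in untreated A549, 0.765 and 0.783 CPM upon palbociclib, 3.21 and 3.28 CPM upon indisulam and 0.506 and 0.656 CPM upon both. SUM159 had 1.21 and 2.01 CPM untreated, 0.675 and 0.589 CPM upon palbociclib, 1.76 and 1.49 CPM upon indisulam and 0.717 and 0.418 CPM upon both for PRC1. Its exons share 3181 bases with another annotated gene on the same strand, so its level is uncertain.

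The anaphase-promoting complex axis is represented by its activator CDC20, the conjugating enzyme UBE2C, its substrate securin (PTTG1) and separase (ESPL1), the protease that securin restrains. All 4 genes fell upon palbociclib and upon the combination in both lines. ESPL1 fell most in each of these comparisons. It had 88.1 and 87.9 CPM in the untreated libraries, 16.8 and 16.9 CPM with palbociclib, 64.9 and 69.0 CPM with indisulam and 8.74 and 8.95 CPM with the combination in A549. SUM159 values of ESPL1 were 68.0 and 68.5 CPM untreated, 21.3 and 21.5 CPM upon palbociclib, 50.9 and 52.3 CPM upon indisulam and 14.7 and 13.1 CPM upon both. The combination libraries were below those of either drug. PTTG1 (chr5:160421855-160428739, plus strand) fell least upon the combination in both lines. A549 libraries had 126 and 122 CPM untreated, 30.2 and 28.0 CPM upon palbociclib, 134 and 125 CPM upon indisulam and 47.2 and 47.3 CPM upon both, and SUM159 libraries had 119 and 108 CPM untreated, 45.2 and 42.1 CPM upon palbociclib, 108 and 108 CPM upon indisulam and 42.4 and 44.1 CPM upon both. In A549, unlike for ESPL1, the combination libraries of PTTG1 were above the palbociclib libraries, with changes from untreated of -1.39 ± 0.054 and -2.10 ± 0.056. In SUM159 the corresponding changes were -1.39 ± 0.053 and -1.38 ± 0.053. CDC20, whose CHR window is among those printed, had 167 and 164 CPM in the untreated libraries, 48.8 and 48.0 CPM with palbociclib, 135 and 139 CPM with indisulam and 40.1 and 38.5 CPM with the combination in A549. SUM159 libraries of CDC20 had 373 and 371 CPM untreated, 142 and 141 CPM upon palbociclib, 244 and 245 CPM upon indisulam and 91.1 and 90.1 CPM upon both. It fell with every treatment in both lines, with indisulam changes of -0.27 ± 0.043 and -0.61 ± 0.034.

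The genes of chromosome structure were TOP2A, MKI67 and PIF1. TOP2A (chr17:40388525-40417896, minus strand), the topoisomerase that untangles sister chromatids, had the largest combination fall of the 49 genes in both lines. In A549 it had 751 and 807 CPM in the untreated libraries, 146 and 147 CPM with palbociclib, 357 and 369.7 CPM with indisulam and 46.2 and 51.2 CPM with the combination. SUM159 had 824 and 871 CPM untreated, 281 and 281 CPM upon palbociclib, 539 and 548 CPM upon indisulam and 114 and 117 CPM upon both. Each drug alone lowered TOP2A. The changes in A549 and SUM159 were -2.41 and -1.59 upon palbociclib, -1.10 and -0.64 upon indisulam, and, upon the combination, -3.999 ± 0.056 and -2.87 ± 0.039. PIF1 (chr15:64815632-64825668, minus strand), a DNA helicase of low level, behaved differently in the lines. It had 22.9 and 25.3 CPM in the untreated libraries, 2.92 and 2.64 CPM with palbociclib, 30.6 and 37.8 CPM with indisulam and 2.48 and 3.00 CPM with the combination in A549. The PIF1 levels in SUM159 were 12.7 and 12.9 CPM untreated, 7.501 and 8.87 CPM upon palbociclib, 18.05 and 22.1 CPM upon indisulam and 7.02 and 5.29 CPM upon both. Upon indisulam it rose in both lines (0.51 ± 0.099 and 0.65 ± 0.11, adjusted p = 6.98e-04 and 1.89e-04). Its change upon palbociclib was -3.13 ± 0.14 in A549 and -0.64 ± 0.13 in SUM159, the smallest fall of the 49 genes in that line. MKI67, the gene of the Ki-67 antigen used to count cycling cells, had changes of -2.68 ± 0.078 and -2.14 ± 0.068 upon palbociclib and of -2.99 ± 0.080 and -2.58 ± 0.069 upon the combination. Its levels were 549.1 and 654 CPM in the untreated libraries, 101 and 87.1 CPM with palbociclib, 473 and 469 CPM with indisulam and 73.1 and 78.2 CPM with the combination in A549. SUM159 cells had MKI67 at 483 and 537 CPM untreated, 106 and 124 CPM upon palbociclib, 459 and 478 CPM upon indisulam and 90.8 and 80.1 CPM upon both.

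**Figure D3:**
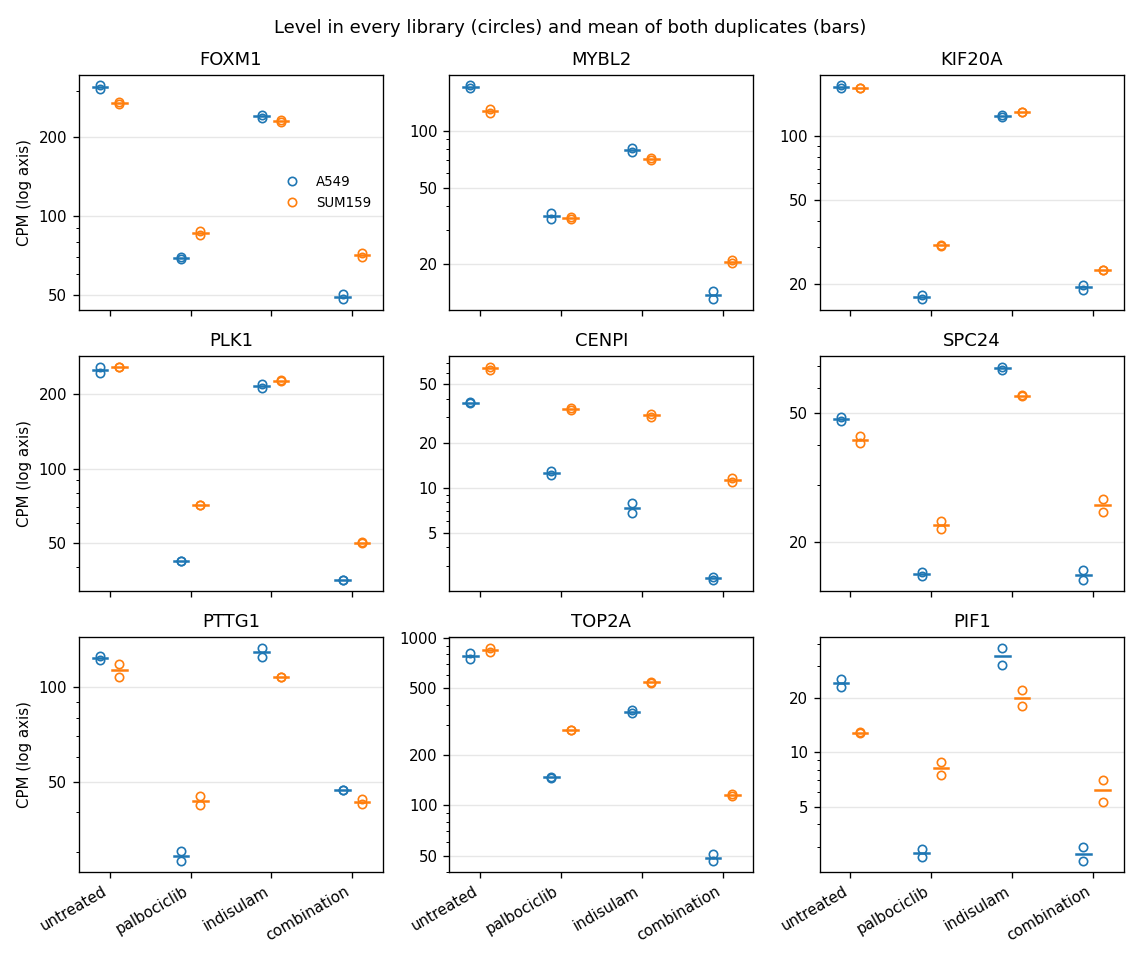
Level in CPM (log axis) of 9 of the genes in each of the 16 libraries, 1 panel per gene, with treatments on the x axis, blue for A549, orange for SUM159, a circle for each library and a bar at the mean of the 2 libraries. FOXM1, MYBL2 and PLK1 step down from untreated to indisulam to palbociclib to combination, CENPI is lower upon indisulam than upon palbociclib, and SPC24 and PIF1 are higher upon indisulam than untreated.

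Set side by side, 25 of the 49 genes fell upon indisulam in both lines and 2, SPC24 and PIF1, rose in both, beside 17.5% and 13.5% of the 14122 genes tested in both lines. The 6 genes with 2-fold falls upon indisulam in A549 were CENPI, CENPM, ECT2 (-1.26), KIF20B, TOP2A (-1.10) and MYBL2. Those in SUM159 were CENPI and CENPM. The 8 genes that rose in A549 were KIF23, UBE2C (0.16), KIF18A, NEK2, TTK, NDC80, PIF1 and SPC24, and the 4 that rose in SUM159 were BUB1B, CENPF, SPC24 and PIF1. The call of UBE2C in A549 was lost without either untreated library or without the first indisulam library (adjusted p from 0.0595 to 0.124). Across the 49 genes the indisulam changes in A549 and SUM159 had the same sign for 40, with Pearson's r of 0.86 and Spearman's rho of 0.83. For palbociclib r was 0.69 and rho 0.75, and for the combination both were 0.80. These are descriptions over genes that share 1 set of libraries per line, and genes are not independent replicates.

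The combination was next compared with each single drug. Against indisulam, all 49 genes were lower in both lines, where 20.1% of all genes were lower and 18.6% higher in A549, and 28.0% and 24.9% in SUM159. The median log2 difference of the 49 genes was -2.28 in A549, from -3.64 for PIF1 to -1.11 for ECT2, and -1.79 in SUM159, from -2.49 for SPC25 to -0.96 for KIF18A. Against palbociclib, which asks what indisulam adds, 31 genes were lower and 5 higher in A549 and 13 did not pass the test, with a median of -0.31. Of all genes 27.8% were lower and 23.7% higher in that comparison. In SUM159, 41 were lower, 1 was higher and 7 did not pass, with a median of -0.50, beside 24.9% and 23.4% of all genes.

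CENPI had the largest further fall in both lines, at -2.35 ± 0.13 in A549 and -1.58 ± 0.065 in SUM159. In A549 the next were TOP2A (-1.59 ± 0.055), KIF20B (-1.46 ± 0.074), ECT2 (-1.39 ± 0.045) and MYBL2 (-1.38 ± 0.070). TOP2A and KIF20B followed CENPI in SUM159 also, at -1.28 ± 0.038 and -1.21 ± 0.049. The 5 genes that were higher upon the combination than upon palbociclib in A549 were PTTG1 (0.71 ± 0.060), NEK2 (0.46 ± 0.069), DLGAP5 (0.45 ± 0.060), CENPF (0.29 ± 0.076) and KIF23 (0.15 ± 0.046). The CENPF call was lost without the second palbociclib library of A549 (adjusted p = 0.075). The 1 gene higher in SUM159, SPC24 (0.20 ± 0.064), did not pass without the second palbociclib library (adjusted p = 0.12), without the second combination library (adjusted p = 0.177) or by DESeq2 (adjusted p = 0.0659).

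Whether the drugs together gave more or less than the sum of their separate log2 changes was tested as a departure from additivity, in which a negative value means a lower level than the sum. This contrast uses the same 8 libraries as the comparisons above. In A549 the departure was called negative for 10 genes and positive for 3 and was not called for 36, beside 2.05% and 1.49% of all genes. The median over the 49 genes was -0.13. The largest called negative departures were those of KIFC1, a minus-end kinesin that clusters centrosomes (-0.75 ± 0.12, adjusted p = 0.00507), ESPL1 (-0.54 ± 0.094, adjusted p = 0.00923) and SPC24 (-0.53 ± 0.091, adjusted p = 0.00787). The positive ones were PTTG1 (0.64 ± 0.078, adjusted p = 9.61e-04), KIF20A (0.61 ± 0.079, adjusted p = 0.00165) and DLGAP5 (0.50 ± 0.076, adjusted p = 0.0042). The levels of KIFC1 were 64.6 and 66.3 CPM in the untreated libraries, 15.3 and 15.1 CPM with palbociclib, 51.3 and 52.6 CPM with indisulam and 6.30 and 7.97 CPM with the combination in A549. For KIFC1, SUM159 gave 105 and 106 CPM untreated, 39.1 and 40.5 CPM upon palbociclib, 69.3 and 71.2 CPM upon indisulam and 17.5 and 17.9 CPM upon both. The combination put KIFC1 far below either drug in both lines. The number of negative calls in A549 rested on single libraries. It was 2 without the second indisulam library, 4 without the second palbociclib library, 5 without the first untreated library and 6 without the first indisulam library. ESPL1 and SPC24 were among those lost without the second indisulam library (adjusted p = 0.0655 and 0.0644), and SPC24 was also lost without the second palbociclib library (adjusted p = 0.0505).

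In SUM159 the departure was called negative for 26 of the 49 genes, called positive for 0 and not called for 23. Of all genes, 2.16% were called negative and 2.22% positive. The median over the 49 genes was -0.27. Of the 3 genes with a positive value, 1 had an unadjusted p under 0.05 by edgeR, and DESeq2 called 0. PIF1 had the largest negative departure (-1.06 ± 0.18, adjusted p = 0.00375), followed by KIF14, a kinesin of the midbody (-0.77 ± 0.075, adjusted p = 9.83e-05), and TOP2A (-0.64 ± 0.052, adjusted p = 1.53e-05). KIF14 had 77.0 and 77.6 CPM in the untreated libraries, 28.6 and 28.6 CPM with palbociclib, 65.8 and 66.2 CPM with indisulam and 14.1 and 14.5 CPM with the combination in SUM159, and in A549 it had 109 and 122 CPM untreated, 20.5 and 21.2 CPM upon palbociclib, 91.7 and 87.0 CPM upon indisulam and 10.4 and 12.1 CPM upon both. KIFC1 followed at -0.59 ± 0.071. KIFC1, KIF14, TOP2A, KIF18B, PLK4, MAD2L1, TTK and UBE2C were called negative in both lines, 8 of the 49 genes beside 0.566% of the genes tested in both. This overlap is limited by the negative calls in A549, whose number rested on single libraries. FOXM1 and MYBL2 were not called in either line.

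**Figure D4:**
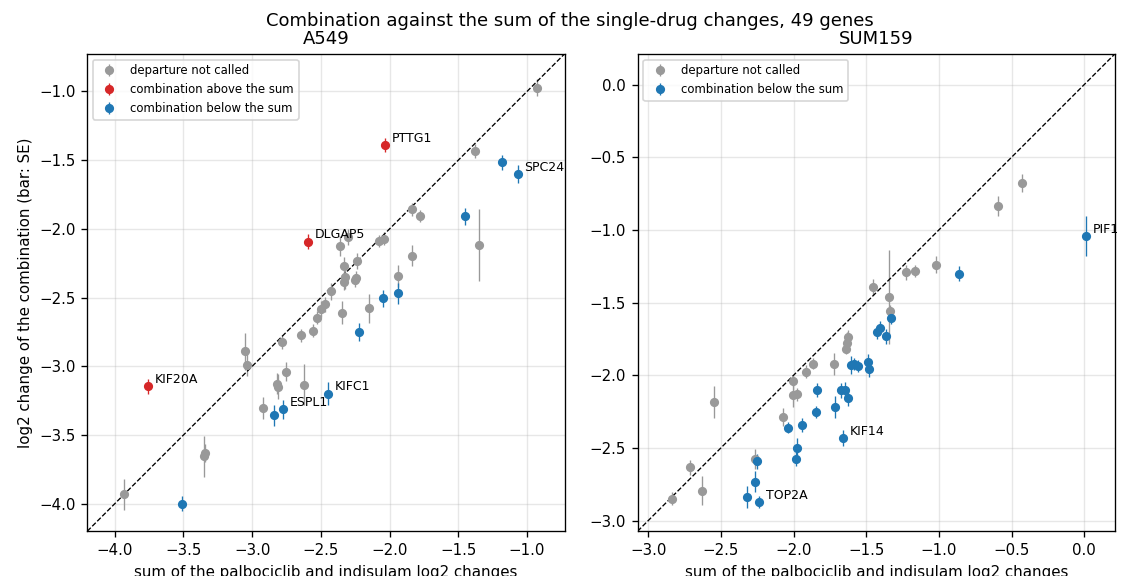
Log2 change upon the combination (y axis) against the sum of the log2 changes upon palbociclib and upon indisulam (x axis) for the 49 genes, 1 panel per line, with SE bars, a dashed diagonal of additivity, and the called genes coloured by direction. In SUM159 the 26 called genes all lie below the diagonal, and in A549 10 lie below it and 3 above.

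The changes were then compared between the lines in 1 fit of all 16 libraries, where a positive difference means a smaller fall or larger rise in SUM159. For palbociclib, 45 of the 49 genes had a called positive difference and 4 were not called, beside 9.65% of all genes positive and 3.15% negative. The median difference was 0.72 over the 49 genes and 0.08 over all genes tested. ECT2, MAD2L1, CENPM and PRC1 were the 4 without a call. The largest differences were those of PIF1 (2.59 ± 0.21, adjusted p = 9.67e-09), CENPE, a kinesin that carries chromosomes to the spindle equator (1.15 ± 0.081, adjusted p = 9.93e-10), and KIF14 (1.13 ± 0.087, adjusted p = 3.10e-09). CENPE had 89.5 and 99.1 CPM in the untreated libraries, 21.0 and 20.7 CPM with palbociclib, 85.1 and 84.4 CPM with indisulam and 18.3 and 20.8 CPM with the combination in A549, against 140.1 and 139 CPM untreated, 61.6 and 65.9 CPM upon palbociclib, 117 and 114 CPM upon indisulam and 43.3 and 44.4 CPM upon both in SUM159. Palbociclib libraries of CENPE thus lay far lower in A549, from an untreated level that differed less. FOXM1 differed by 0.61 ± 0.057 and MYBL2 by 0.47 ± 0.073. Leaving out any 1 library gave 41 to 44 positive genes. The split of calls over all genes depended on the scaling, with 75.4% of them positive here and 44.02% with DESeq2 size factors, which left 43 of the 49 genes positive.

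For the combination, 43 genes had a called positive difference, beside 19.1% of all genes positive and 11.8% negative. The median was 0.63, against 0.10 over all genes. PIF1 (2.15 ± 0.23), CENPI (1.499 ± 0.14) and TOP2A (1.19 ± 0.068) led, with adjusted p = 1.95e-07, 2.66e-08 and 5.43e-12. The 6 genes not called were NUF2, PTTG1, CDC20, CDCA8, KIF18A and PRC1. Leaving out 1 library gave 29 to 42 positive genes. With DESeq2 size factors 37 were positive, while the positive share of all calls moved from 61.8% to 46.6%. Without any 1 of the 8 A549 libraries the median over all genes moved by -0.13 to -0.15 for the combination and by -0.13 to -0.17 for palbociclib.

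For indisulam the lines differed in both directions, with 10 of the 49 genes negative, 7 positive and 32 not called, beside 6.97% and 8.04% of all genes. The median was -0.05, against 0.02 over all genes. NUF2 (-0.35 ± 0.086), CDC20 (-0.34 ± 0.053) and CDCA8 (-0.30 ± 0.079) were relatively lower in SUM159, with adjusted p = 0.00799, 1.05e-04 and 0.0123. CENPI (1.29 ± 0.10), ECT2 (0.60 ± 0.062) and BUB1B (0.54 ± 0.065) were relatively higher, with adjusted p = 8.78e-09, 4.19e-07 and 5.28e-06. The 10 negative genes became 2 without the first A549 indisulam library, 3 to 5 without any 1 of the 4 untreated and indisulam libraries of SUM159, and 5 without the second untreated A549 library. Among the genes named, NUF2 was lost without the second untreated or first indisulam library of A549 or the first untreated or second indisulam library of SUM159 (adjusted p from 0.0527 to 0.0646). CDCA8 was lost without the second untreated or first indisulam library of A549 or the second untreated or first indisulam library of SUM159 (adjusted p from 0.052 to 0.0891).

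**Figure D5:**
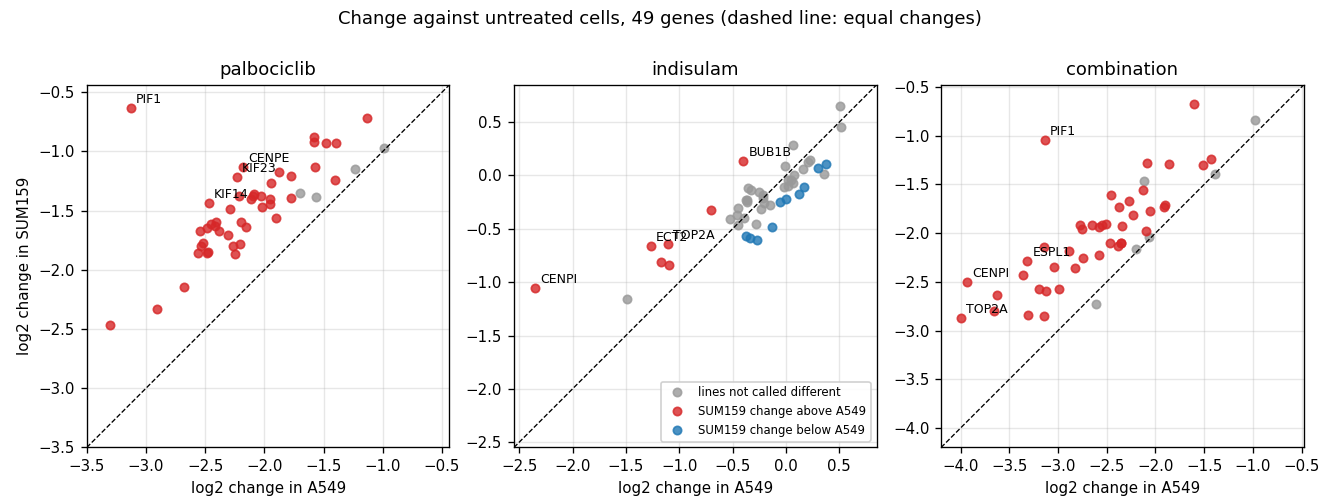
Log2 change in SUM159 (y axis) against that in A549 (x axis) for the 49 genes, 1 panel for each of palbociclib, indisulam and the combination, with a dashed line of equal change. Nearly all genes lie above the line for palbociclib and the combination, with medians of -1.44 against -2.18 and -1.98 against -2.51, and on both sides of it for indisulam.

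Before treatment the lines already differed in these genes. Untreated SUM159 had lower levels of 26 of the 49 and higher levels of 16, and 7 did not pass the test, beside 38.0% of all genes lower and 38.3% higher. The median difference was -0.14, against -0.01 over all genes. ECT2 (-1.84 ± 0.044), PIF1 (-1.04 ± 0.12) and NEK2 (-0.93 ± 0.060) were the furthest below A549, and CDC20 (1.04 ± 0.037), CDCA8 (0.65 ± 0.057) and CENPI (0.64 ± 0.061) the furthest above. Per kilobase of exon, the highest untreated levels in A549 were those of ECT2 (126 CPM per kilobase) and TOP2A (122), followed by CDC20 (82.0), TPX2 (75.5) and ANLN (66.7). In SUM159 they were those of CDC20 (185), TOP2A (133), TPX2 (109), ANLN (75.4) and BIRC5 (63.7). These levels were scaled within each line, so they order the genes of 1 line and do not compare the lines. In the fit of all 16 libraries TOP2A (-0.01) and ANLN (0.045) did not pass the test between the untreated lines. PIF1 (5.18 in A549 and 2.76 in SUM159) and PRC1 (0.460 and 0.291) were the lowest in both lines. The place of PRC1 is uncertain, as its exons share 3181 bases with another annotated gene on the same strand.

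Related genes outside the 49 were followed in 5 lists. Upon the combination 30.4% of all genes tested were lower in A549 and 33.1% in SUM159. Other centromere and kinetochore genes, 34 in all, were lower upon the combination for 32 in A549 (median -1.36) and 32 in SUM159 (median -1.21). CENPU, of the inner centromere network (-3.79 and -2.83), and KNL1, the platform for checkpoint proteins (-3.50 and -2.53), fell furthest in that list. Of 25 other spindle and cytokinesis genes, 24 were lower in each line (medians -2.01 and -1.59), led by CDCA3 (-3.33 and -3.11) and GTSE1 (-2.88 and -2.35). Upon palbociclib alone all 25 fell in both lines, and upon indisulam alone 13 fell and 2 rose in A549 and 17 fell and 2 rose in SUM159. Of all genes tested, 21.1% fell upon palbociclib in A549 and 29.0% in SUM159. With indisulam 25.9% fell and 23.3% rose in A549, and 24.9% fell and 21.9% rose in SUM159. Both lists went the way of the 49 genes, with medians nearer to 0.

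The other 3 lists had medians much nearer to 0. Of all genes tested, 30.4% fell and 27.4% rose upon the combination in A549, and 33.1% and 32.2% in SUM159. Of 16 genes for the anaphase-promoting complex and its partners, 10 fell and 1 rose in A549 and 11 fell and 1 rose in SUM159 upon the combination, with medians of -0.27 and -0.28. The largest falls were those of the chain-extending enzyme UBE2S (-2.04 and -1.77) and the subunit ANAPC1 (-1.34 and -1.05). Of 12 MuvB and DREAM genes, 8 fell and 3 rose in each line, with medians of -0.47 and -0.54. RBL1, which encodes p107 (-2.98 and -2.07), and the MuvB subunit LIN52 (-1.34 and -1.10) fell furthest. Of 24 kinesin genes of interphase transport, 21 were tested, of which 8 fell and 4 rose in A549 and 8 fell and 7 rose in SUM159, with medians of -0.11 and 0.046. Among them KIF5C, a neuronal transport motor, fell (-1.33 and -0.47) and KIF7, a motor of the Hedgehog pathway, rose (0.69 and 0.39). The medians of the 12 genes grouped as mitotic kinesins in the same comparison were -2.74 and -2.24.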

How the data were processed

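The authors prepared stranded poly(A) libraries, sequenced as 75 bp read pairs on a NextSeq550, trimmed adapters with SeqPurge and aligned the reads with HISAT2 2.2.1 to a GRCh38 index with known variants and transcripts. The deposited tables, 1 per library, hold unnormalized counts for each Ensembl gene, and the submitters' processing notes name HTSeq. The strand setting and the annotation release are not given in the sources used here. Reads in no gene, ambiguous or without a unique alignment made up 13.2% to 16.4% of each library and were left out.

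From these counts, levels and changes were computed. The 8 libraries of each line were fitted together with edgeR 4.0.16 in R 4.3.3 (filterByExpr, TMM, quasi-likelihood F test, Benjamini-Hochberg adjustment, threshold 0.05). The fits held 15744 genes for A549 and 16080 for SUM159. Differences between lines were tested in 1 fit of all 16 libraries with 17764 genes. SE was taken as the absolute log2 change over the square root of F. CPM per kilobase used the merged exon length of GENCODE 44, which also gave coordinates on GRCh38 and matched 58207 of 58676 identifiers. Floors of 3 counts cover only counting error, as reads copied by PCR are not independent. The fit of each line was run on simulated counts with known changes in a small part of the genes. No departure from additivity and no difference between lines was simulated, so those tests were not checked in this way.

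Alternatives were total-count scaling, DESeq2 size factors, DESeq2 1.42.0, no filter on low counts, at least 10 counts in every library, a replicate block, 1 fit of all 16 libraries, a shorter promoter window, and leaving out each library. The 49 genes, the 5 other lists and the tests were chosen with earlier results of these data known. Values in every library are given for FOXM1, MYBL2, the genes of each role with the largest and the smallest mean absolute combination change, and genes whose called change went against most of their role. For differences between lines and from additivity, the 3 largest in each direction are named, and from each other list the 2 with the largest combination change. Names given beside counts of 6 or fewer, and the other genes named for their indisulam changes, were chosen after their values were seen.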

Additional observations from a re-analysis of the deposited data

Results flagged for a closer look

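The change upon treatment differed between SUM159 and A549, by an interaction term in the fit of all 16 libraries, for most of the 49 genes upon palbociclib and upon the combination. All differences are log2 values, SUM159 minus A549, and the cause was not tested. The medium also differs between the lines and cannot be told apart from the line.

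Upon palbociclib 45 of the 49 genes had a called positive difference, beside 9.65% of all genes tested, so that these 45 fell less in SUM159. The largest were PIF1 (2.59), CENPE (1.15) and KIF14 (1.13). Upon the combination 43 genes had a called positive difference, beside 19.1% of all genes tested, led by PIF1 (2.15), CENPI (1.499) and TOP2A (1.19).

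Upon indisulam 10 genes were relatively lower in SUM159 and 7 relatively higher, beside 6.97% and 8.04% of all genes tested. The lower ones included NUF2 (-0.35), CDC20 (-0.34) and CDCA8 (-0.30), and the higher ones CENPI (1.29), ECT2 (0.60) and BUB1B (0.54). The calls of NUF2 and CDCA8 were lost in some refits without a library. BUB1B shares exons with a readthrough gene, so its counts are uncertain. Groups of 2 libraries are too small for a test of single outlying samples, and none was run.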

How the results depend on the processing

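The falls of all 49 genes upon palbociclib and upon the combination, in both lines, were called under every alternative run except for PRC1, whose palbociclib call in SUM159 was lost without the second untreated library. Of 627 called changes of the 49 genes, the alternatives other than leaving out a library lost 31 with DESeq2, 16 with total-count scaling, 13 without a filter, 10 with DESeq2 size factors, 7 with at least 10 counts in every library and 4 with the replicate block. In 1 fit of all 16 libraries, which already gave the differences between lines, 2 of the 480 changes within lines were lost. Leaving out single libraries lost 337 over all refits, most of them differences between lines.

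Total-count scaling gave 10 genes higher upon indisulam in SUM159 (4 reported), and 6 genes relatively lower in SUM159 upon indisulam (10 reported), a count that was 6 with DESeq2, 4 without a filter and 2 to 10 on leaving out a library. The gene higher upon the combination than upon palbociclib in SUM159 was lost with DESeq2 and without a filter (0 genes in each) and in some refits without a library (0 to 1). Negative departures from additivity in A549 numbered 2 to 10 without a library. Over all genes, the departures called in A549 numbered 556, against 343 with DESeq2, 998 without a filter, 931 in 1 fit of all 16 libraries and 52 to 976 without a library. Those in SUM159 numbered 704, against 439 with DESeq2, 463 in 1 fit of all 16 libraries and 207 to 941 without a library. Differences between lines numbered 2274 for palbociclib (1546 to 3686 without a library) and 2666 for indisulam (1725 to 3054). The cause was not tested.

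Signs turned for DLGAP5 in the line difference upon the combination (0.18, and from -0.000220 to 0.21 without a library) and for PLK1 in the untreated level (-0.091, against 0.0073 with total-count scaling and from -0.095 to 0.037 without a library). The share of promoters with TAAACA was 2.38% in the shorter window, against 7.14%.

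Total-count scaling raised the median of all genes by 0.11 for palbociclib and 0.15 for the combination in SUM159. The share of calls that were positive moved with total-count scaling from 51.1% to 62.4% for palbociclib, 47.4% to 57.8% for the combination and 48.1% to 61.2% for the combination against indisulam in A549. In SUM159 it moved from 46.8% to 62.5%, from 49.3% to 64.3% and from 47.1% to 62.4%, and from 46.8% to 57.9% for indisulam. In 1 fit of all 16 libraries the SUM159 shares were 58.4% for palbociclib and 58.4% for the combination against indisulam. For departures in A549 the share was 42.1%, against 54.7% with DESeq2 size factors, 53.9% with DESeq2 and 57.3% in 1 fit, and in SUM159 50.7%, against 29.8% without a filter and 62.0% with at least 10 counts. For line differences upon palbociclib it was 75.4%, against 61.3% with total-count scaling, 44.02% with DESeq2 size factors, 42.1% with DESeq2, 39.2% with at least 10 counts and 23.2% to 30.6% without an A549 library. Upon the combination it was 61.8%, against 46.6%, 44.6% and 39.9% with DESeq2 size factors, DESeq2 and at least 10 counts, and 35.5% to 39.7% without an A549 library.

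The replicate numbers in the labels pair nothing that the labels name. Deviations of same-numbered libraries correlated between -0.158 and 0.164 over 12 pairs of groups, 1 of them over 0.1. The other values larger than 0.1 in size were negative, at -0.158, -0.157 and -0.115. With the replicate block, 28 genes fell upon indisulam in SUM159 (29 without it), 24 departed negatively in SUM159 (26) and 42 differed between lines upon the combination (43), and the other counts of the 49 genes were as reported. The fewest counts were in the A549 combination libraries, at 11 and 14 for PRC1 and 26 and 40 for SPC25, so that counting error is widest for these.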
